A study of Mus musculus with 29 samples.

Results

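The 9 genes described here, Has2, Ptgs2, Tnfaip6, Ptx3, Adamts1, Areg, Ereg, Btc and Runx2, are genes that follicles use around ovulation. They were picked by name from the 51912 gene IDs of the deposited count table. Their RNA was sequenced in bulk from whole mouse ovaries that were either Cdkn1b +/+ (wild type) or Cdkn1b -/- (labelled p27null, called Cdkn1b-null here). Ovaries came from fetuses at the embryonic days E13.5 and E18.5, from pups at PND8 (postnatal day 8) and from adults at 12wk (12 weeks). The 29 libraries comprised 4 wild-type libraries at each age and 3, 4, 3 and 3 Cdkn1b-null libraries at these ages. Cdkn1b encodes p27Kip1, an inhibitor of cyclin-dependent kinases, and the study asked about cell cycle regulation in ovarian development. All ovaries were dissociated with papain before RNA extraction. The labels give no estrous cycle stage for the adults, and do not say whether the libraries of a group came from separate animals or litters, so p-values measure only the spread between these libraries, which may be partly technical. In whole ovaries, fewer cells of a type and less RNA per cell cannot be told apart.

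When luteinizing hormone acts on a mature follicle, its mural granulosa cells release the epidermal growth factor (EGF)-like ligands amphiregulin, epiregulin and betacellulin. These ligands act on the cumulus cells around the oocyte, which then build a hyaluronan-rich matrix and make prostaglandins, in a step called cumulus expansion. Proteases remodel the follicle wall, the oocyte is released, and the remaining cells form the corpus luteum.

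Most of these genes were at low levels at every age, and only Adamts1 and, in most adults, Runx2 were higher. Levels are CPM, a gene's counts per 1000000 counts of its library, scaled by the trimmed mean of M-values (TMM) over all libraries, and 3 counts, used here as a floor for a reliable level, were worth 0.0622 to 0.2128 CPM. Adamts1 exceeded 10 CPM in all 29 libraries and Runx2 in 6, all of them adult, whereas none of the other 7 genes did in any library (the highest single value was 8.93 CPM, for Ptx3 at E13.5). Areg passed 3 counts in 5 libraries and Ptgs2 in 18 of 29. Tnfaip6, Ereg, Btc, Adamts1 and Runx2 did so in all 29, though Runx2 was at only 0.258 to 1.01 CPM at E18.5. Between the genotypes edgeR called 0 members at any age at an adjusted p under 0.05, where it called, from the youngest to the oldest age, 0.00606%, 4.99%, 0.349% and 0.0115% of all genes tested. Several members fell from E13.5 to later ages, and Runx2 rose in wild-type adults (in Cdkn1b-null adults its adjusted p was 0.0577 in edgeR and 0.00852 in DESeq2). Runx2 also varied most between adult ovaries, over 14.2-fold among wild-type libraries (5.4-fold without replicate 3, 6.51-fold without replicate 2) and over 24.4-fold among Cdkn1b-null libraries (3.28-fold without replicate 1, 7.45-fold without replicate 4).

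**Figure D1:**
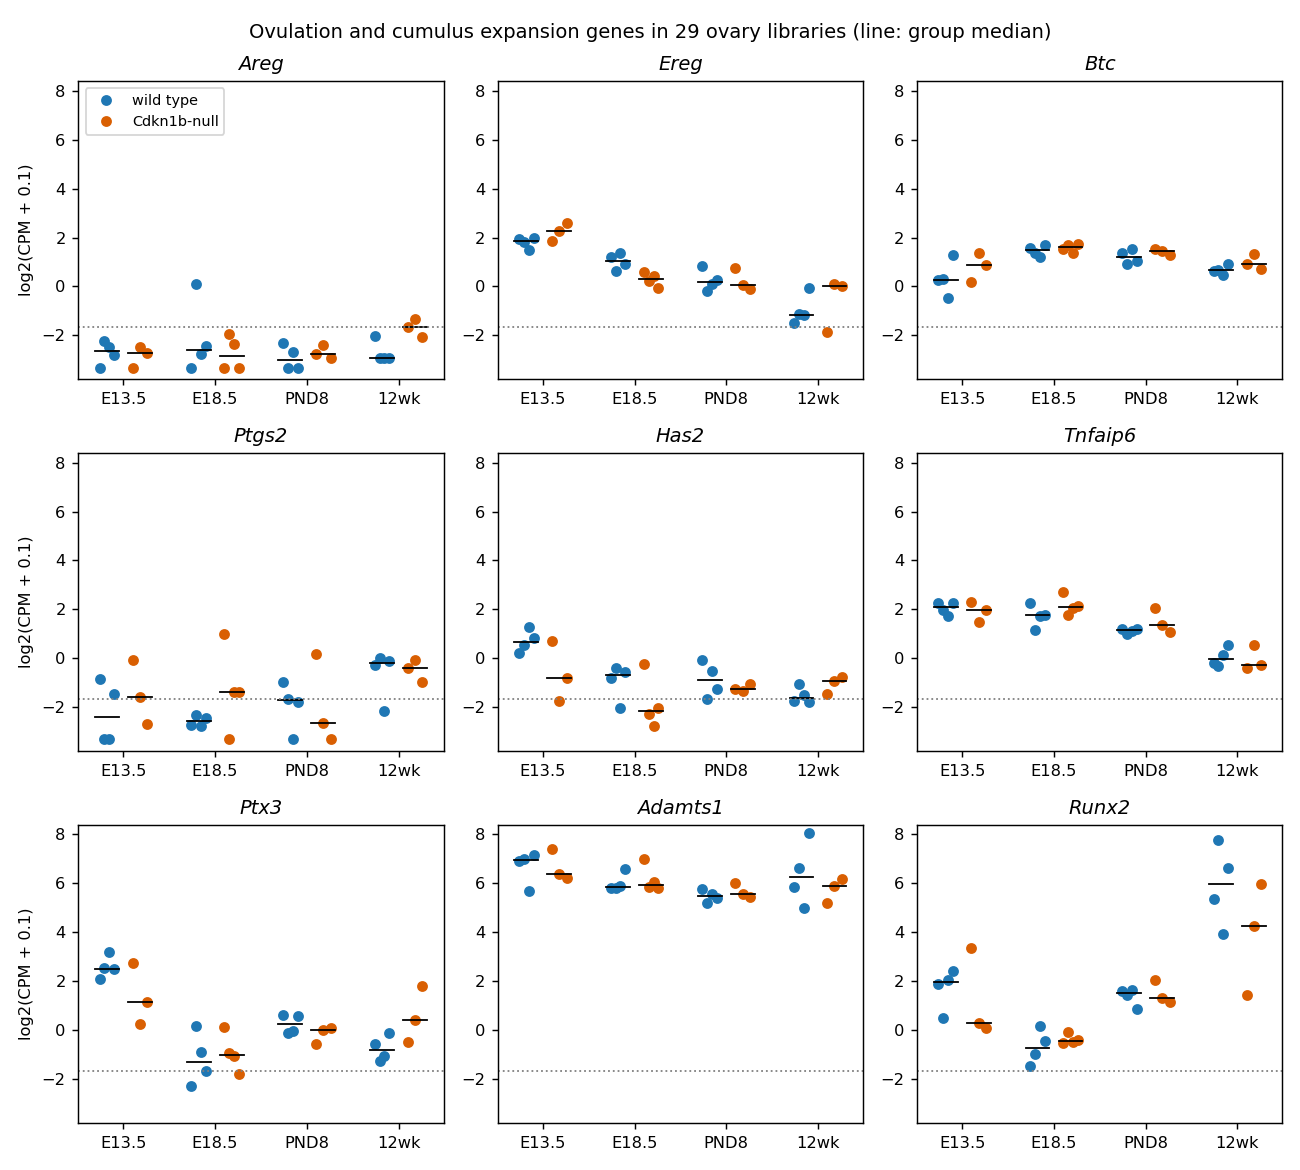
Level of each gene in each library, as log2(CPM + 0.1), by age (x axis) and genotype (blue, wild type; orange, Cdkn1b-null). Short black lines are group medians and the dotted line is the highest 3-count floor among the libraries, 0.2128 CPM. Adamts1 stayed between 31.5 and 264 CPM in all 29 libraries, Runx2 spread from 2.56 to 218 CPM at 12wk, and Areg lay near or below the floor in nearly all libraries.

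The 3 ligand genes lie close together on chromosome 5 (GRCm38, GENCODE M21 annotation): Ereg at chr5:91074622-91093646 on the plus strand, Areg at chr5:91139599-91148432 on the plus strand and Btc at chr5:91357261-91402994 on the minus strand. The gaps are 46.0 kb between Ereg and Areg and 208.8 kb between Areg and Btc. Promoter sequences came from RefSeq (GRCm38.p6), which matched 7 of the 9 genes; Has2 and Ereg had no entry. The 250 bases before the annotated start are printed for 4 genes, because Areg (at or under 3 counts in 24 libraries) and Btc (over 3 counts in all 29) are ligands of 1 locus, Ptgs2 was at or under 3 counts in 11 libraries, and Adamts1 was over 10 CPM in every one. The windows are chr5:91139349-91139598 (plus strand) for Areg, chr5:91402995-91403244 (minus strand) for Btc, chr1:150099781-150100030 (plus strand) for Ptgs2 and chr16:85803114-85803363 (minus strand) for Adamts1. They read 5′ to 3′ in lower case, and capitals mark matches on either strand to 6 motifs: TGACGTCA (the cAMP response element), TGANTCA (AP-1), TTNNGNAA (C/EBP), TGTGGT (RUNX), CACGTG (the E-box) and TATAAA (the box of that name).
Areg: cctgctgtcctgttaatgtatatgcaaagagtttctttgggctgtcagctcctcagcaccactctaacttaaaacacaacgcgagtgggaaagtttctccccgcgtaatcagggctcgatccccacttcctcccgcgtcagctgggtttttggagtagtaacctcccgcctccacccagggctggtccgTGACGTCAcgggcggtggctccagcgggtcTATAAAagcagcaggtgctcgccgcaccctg
Btc: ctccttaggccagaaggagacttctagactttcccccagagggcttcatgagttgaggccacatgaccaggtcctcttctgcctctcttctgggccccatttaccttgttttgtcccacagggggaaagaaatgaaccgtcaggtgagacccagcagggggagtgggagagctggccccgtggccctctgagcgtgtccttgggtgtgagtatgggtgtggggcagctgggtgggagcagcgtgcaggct
Ptgs2: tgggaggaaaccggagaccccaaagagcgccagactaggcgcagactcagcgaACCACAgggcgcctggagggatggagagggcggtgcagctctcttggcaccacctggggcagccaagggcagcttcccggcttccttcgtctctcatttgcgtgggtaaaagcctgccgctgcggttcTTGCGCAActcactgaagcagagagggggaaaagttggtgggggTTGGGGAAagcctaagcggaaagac
Adamts1: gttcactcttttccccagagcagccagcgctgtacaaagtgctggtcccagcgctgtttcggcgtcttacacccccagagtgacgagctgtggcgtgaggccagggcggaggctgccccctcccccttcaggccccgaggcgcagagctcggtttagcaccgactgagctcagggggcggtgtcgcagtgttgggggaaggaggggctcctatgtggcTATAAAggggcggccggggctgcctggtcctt
Areg had the cAMP response element 61 bases and a TATAAA box 31 bases before its start, and Btc had none of the 6 motifs. The cAMP response element was present in 1.55% of 32851 RefSeq promoter windows of this length and TATAAA in 12.4%. Ptgs2 had C/EBP matches 69 and 25 bases before its start, the first of them read on both strands, and a RUNX match on the opposite strand 197 bases before it. C/EBP matches occurred in 36.8% of windows and RUNX matches in 14.0%. Adamts1 had TATAAA 32 bases before its start. These matches are letters in a window and do not show binding.

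Areg encodes amphiregulin, the ligand usually most strongly induced by luteinizing hormone. Its counts were 0 to 3 in 24 of the 29 libraries, and it was not tested in any comparison because it failed the filter on low counts. The highest value, 0.972 CPM (19 counts), was in wild-type replicate 2 at E18.5, whereas replicates 1, 3 and 4 had 0 to 0.0836 CPM. At 12wk the 4 wild-type libraries had 0.143, 0.0321, 0.0317 and 0.0315 CPM and Cdkn1b-null replicates 1, 3 and 4 had 0.217, 0.294 and 0.139 CPM. These adult values rest on 1 to 11 counts, and the 2 genotypes overlapped.

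Ereg encodes epiregulin and was present in all 29 libraries. Wild-type replicates 1 to 4 had 3.69, 3.42, 2.69 and 3.88 CPM at E13.5, 2.17, 1.43, 2.51 and 1.8 at E18.5, 1.7, 0.785, 0.97 and 1.1 at PND8, and 0.258, 0.353, 0.348 and 0.85 at 12wk. Cdkn1b-null libraries had 3.49, 4.67 and 6.01 CPM at E13.5, 1.4, 1.05, 1.23 and 0.849 at E18.5, 1.57, 0.938 and 0.835 at PND8, and 0.173, 0.962 and 0.9 at 12wk. The fetal ovary at E13.5 thus held the highest values in both genotypes, without overlap with E18.5. From E13.5 to E18.5 Ereg fell by 2.03 ± 0.312 on the log2 scale (SE) in Cdkn1b-null ovaries, with an adjusted p of 0.00183 in edgeR's quasi-likelihood test with Benjamini-Hochberg adjustment. In wild type the difference over the same interval was -0.80 ± 0.301 with an adjusted p of 0.0631 in the same test, which became 0.0436 without wild-type E13.5 replicate 3. DESeq2 called Ereg in this wild-type step (-0.82, adjusted p 0.0277). From E18.5 to PND8 it fell by 0.88 ± 0.331 in wild type (edgeR adjusted p 0.0334), with overlapping groups, and this call was lost in 6 of 8 fits that left out 1 library (E18.5 replicates 1, 3 or 4, or PND8 replicates 2, 3 or 4), with adjusted p between 0.053 and 0.111 in edgeR, and without the filter on low counts (0.0839). From PND8 to 12wk the wild-type difference was -1.25 ± 0.448 with an edgeR adjusted p of 0.0632, and -1.76 with 0.0173 without 12wk replicate 4, the library with 0.85 CPM. DESeq2 called this step (-1.25, adjusted p 0.0441), as did edgeR with all groups in 1 fit (-1.32, adjusted p 0.0196). At E18.5 the 4 Cdkn1b-null values lay below the 4 wild-type values, a difference of -0.81 ± 0.31 with an unadjusted p of 0.0237 and an adjusted p of 0.156 in edgeR, so it did not pass. Groups did not overlap for 14.8% of all genes tested at that age.

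Btc encodes betacellulin. Its group means lay between 1.29 ± 0.734 CPM (SD, n = 4), in wild type at E13.5, and 2.91 ± 0.344 CPM (n = 4), in Cdkn1b-null ovaries at E18.5. It was tested in every comparison and edgeR, fitted on the groups compared, called none, with adjusted p from 0.0764 upward in the steps between ages. The step from E13.5 to E18.5 in wild type was 1.04 ± 0.412 on the log2 scale. That step had an adjusted p of 0.0764 in edgeR, 0.0102 with all groups in 1 fit, and 0.0189 without wild-type E13.5 replicate 4, whose 2.34 CPM was the highest of a group that began at 0.616 CPM.

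Has2, on chromosome 15 (56665627 to 56694539, minus strand), encodes the hyaluronan synthase of the cumulus matrix. Wild-type replicates 1 to 4 had 1.05, 1.34, 2.31 and 1.68 CPM at E13.5 and 0.464, 0.665, 0.145 and 0.585 CPM at E18.5, with no overlap. Later wild-type values ran from 0.217 to 0.849 CPM at PND8 and from 0.189 to 0.385 CPM at 12wk, where the 4 libraries held 6 to 12 counts each. From E13.5 to E18.5 it fell by 1.77 ± 0.502 on the log2 scale, with an adjusted p of 0.0203 in edgeR and 0.0522 without wild-type E18.5 replicate 1. With a block on the replicate number, which the labels do not give as a pairing, the edgeR adjusted p was 0.0592. In Cdkn1b-null ovaries Has2 was at 1.53, 0.195 and 0.478 CPM at E13.5, and 3 of the 4 E18.5 libraries held 3 counts or fewer, so that step was not tested.

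Tnfaip6 encodes TSG-6, which transfers heavy chains of inter-alpha-trypsin inhibitor onto hyaluronan, and lies at chr2:52038009-52056686 on the plus strand. Wild-type means from the youngest to the oldest age were 4.1 ± 0.71, 3.34 ± 1.09, 2.08 ± 0.15 and 0.954 ± 0.291 CPM (SD, n = 4 each). Cdkn1b-null means in the same order were 3.8 ± 1.06 (n = 3), 4.51 ± 1.33 (n = 4), 2.83 ± 1.04 (n = 3) and 0.913 ± 0.391 CPM (n = 3). In both genotypes it went down between PND8 and 12wk. The 4 wild-type libraries at PND8 had 2.17, 1.87, 2.07 and 2.2 CPM and those at 12wk 0.775, 0.705, 0.981 and 1.35. The 3 Cdkn1b-null libraries went from 4, 2.49 and 1.99 CPM to 0.65, 1.36 and 0.727. Every adult library was below every PND8 library of its genotype, and Tnfaip6 fell by 1.05 ± 0.276 in wild type and fell by 1.54 ± 0.431 in Cdkn1b-null ovaries, with edgeR adjusted p of 0.0198 and 0.035. The wild-type call was lost without PND8 replicate 4 (adjusted p 0.053 in edgeR) or 12wk replicate 1 (0.0533). The Cdkn1b-null call was lost in 5 of 6 such fits, all but the one without 12wk replicate 3, with edgeR adjusted p from 0.0515 to 0.119. It was also lost with the block on the replicate number (edgeR adjusted p 0.0772). From E18.5 to PND8 Tnfaip6 fell by 0.76 ± 0.277 in wild type (edgeR adjusted p 0.0283), with overlapping groups. It was called in 2 of 8 fits without 1 library, those without E18.5 replicate 2 or 3 (adjusted p 0.0568 to 0.0954 in the other 6, in edgeR). The edgeR adjusted p was 0.0788 without the filter on low counts and 0.0613 with the block. The same step in Cdkn1b-null ovaries was -0.74 ± 0.318 with an edgeR adjusted p of 0.0556, which passed without E18.5 replicate 2 (0.0375) or PND8 replicate 1 (0.0164).

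Ptx3, at chr3:66219910-66225805 on the plus strand, encodes pentraxin 3, which cross-links the hyaluronan matrix of the cumulus. In wild type its fall from E13.5 to E18.5 had the largest fitted value of the members. In wild type the 4 libraries had 4.19, 5.71, 8.93 and 5.51 CPM at E13.5 and 0.103, 1.02, 0.434 and 0.209 CPM at E18.5. Cdkn1b-null libraries had 6.62, 1.09 and 2.13 CPM at E13.5 and 1, 0.418, 0.378 and 0.189 CPM at E18.5. In both genotypes every E13.5 value was above every E18.5 value. Ptx3 fell by 3.78 ± 0.599 on the log2 scale in wild type (edgeR adjusted p 0.000998), and the call held in each of 8 fits without 1 library. In Cdkn1b-null ovaries it fell by 2.67 ± 0.711 (edgeR adjusted p 0.0212). That call was lost without E13.5 replicate 1 (a log2 difference of -1.65 with an edgeR adjusted p of 0.091), or without E18.5 replicate 2, 3 or 4 (0.0537 to 0.0633). At PND8 Ptx3 ran from 0.577 to 1.43 CPM over both genotypes, and the wild-type step from E18.5 was 1.25 ± 0.578 with an edgeR adjusted p of 0.0711, or 2.09 with 0.0055 without E18.5 replicate 2. The Cdkn1b-null step was 0.63 ± 0.527 (edgeR adjusted p 0.294), or 1.22 with 0.0418 without E18.5 replicate 1. At 12wk the wild-type libraries had 0.574, 0.321, 0.38 and 0.818 CPM and the Cdkn1b-null libraries 0.607, 1.23 and 3.43. The groups overlapped, and the difference of 1.75 ± 0.642 had an unadjusted p of 0.026 and an adjusted p of 0.477 in edgeR. It was 0.78 without Cdkn1b-null replicate 4, the library with 3.43 CPM. In that library 5 endothelial markers summed to 1140 CPM, against 406 to 538 CPM in the other adults, and 7 macrophage markers to 346 CPM, against 208 to 276 CPM, with every marker above 3 counts in every adult. Their part in the Ptx3 value was not tested. Within wild type the step from PND8 was -1.01 ± 0.391 (edgeR adjusted p 0.0806), and -1.31 with 0.0479 without 12wk replicate 4.

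Ptgs2, which encodes the inducible cyclooxygenase of prostaglandin synthesis, lies at chr1:150100031-150108227 on the plus strand. It was at 1 or 2 counts in all 4 wild-type libraries at E18.5, and the genotype difference was tested at 12wk alone. Adult wild-type libraries had 0.717, 0.898, 0.127 and 0.818 CPM and adult Cdkn1b-null libraries 0.65, 0.855 and 0.416, with equal means of 0.64 CPM. The 2 highest values of the series came from 1 library each among fetal and PND8 Cdkn1b-null ovaries, replicate 1 in both: 1.88 CPM (47 counts) at E18.5 and 1.04 CPM (45 counts) at PND8. The other libraries of those groups held 0 to 0.284 and 0 to 0.0586 CPM. That E18.5 library also had the highest summed level of 6 neutrophil markers of its age, 138 CPM against 7.38 to 29.8, and so did the PND8 library, 17.5 against 0.777 to 6.49. All 6 markers were above 3 counts in the first and 4 in the second, whereas Cdkn1b-null replicates 3 and 4 at PND8 had all 6 above 3 counts. At E13.5 the highest sum, 300 CPM, was in Cdkn1b-null replicate 4, where Ptgs2 was at 0.0532 CPM. Their part in the Ptgs2 values was not tested. The step from PND8 to 12wk was not called in wild type (1.75 ± 0.828, edgeR adjusted p 0.145) or in Cdkn1b-null ovaries (0.83 ± 1.21, edgeR adjusted p 0.653), and in the latter it was 4.30 with an adjusted p of 0.0338 in edgeR without PND8 replicate 1.

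Adamts1 encodes a secreted protease that cleaves versican in the expanding cumulus matrix, and lies at chr16:85793827-85803113 on the minus strand. Per kilobase of exon it was the highest of the 9 genes in all 8 groups, for example 20.8 ± 7.57 CPM per kb in wild type at E13.5 (SD, n = 4), where Tnfaip6 came next with 2.4 ± 0.415 and Ptx3, at 2.27 ± 0.751, did not differ from Tnfaip6 beyond its spread. Wild-type replicates 1 to 4 had 119, 128, 51.7 and 142 CPM at E13.5, 55.6, 55.9, 60 and 96.2 at E18.5, and 54.1, 36.7, 47.1 and 41.8 at PND8. Cdkn1b-null libraries had 171, 82.4 and 73.9 CPM at E13.5, 128, 56.8, 65.9 and 56.5 at E18.5, and 64.8, 47.6 and 43.6 at PND8. The lowest wild-type library at E13.5 was below the lowest at E18.5, so those ages overlapped. The difference of -0.73 ± 0.29 had an edgeR adjusted p of 0.0775, or 0.0049 without that library (E13.5 replicate 3) and 0.041 without E18.5 replicate 4. DESeq2 called this difference (-0.74, adjusted p 0.0357). E18.5 and PND8 did not overlap in wild type, as every PND8 value was below every E18.5 value. From E18.5 to PND8 it fell by 0.66 ± 0.2 in wild type (edgeR adjusted p 0.0118), a call made in all 8 fits without 1 library but not with all groups in 1 fit (0.258). In Cdkn1b-null ovaries the same step was -0.62 ± 0.312 with an edgeR adjusted p of 0.104. From PND8 to 12wk the Adamts1 difference in wild type was 1.42 ± 0.57 with an edgeR adjusted p of 0.0921. It was 1.33 with all groups in 1 fit (edgeR adjusted p 0.0323), 1.73 without 12wk replicate 3 (0.023) and 0.55 without 12wk replicate 4. In Cdkn1b-null ovaries this later step was 0.21 ± 0.272 (edgeR adjusted p 0.62).

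At E13.5 Adamts1 values moved with genes of the mesonephros and kidney tubule, organs next to the fetal ovary. The 7 markers (Hnf4a, Pax2, Cdh16, Lrp2, Slc34a1, Slc22a6 and Fxyd2) were chosen after the values were seen, since Kcnj16 and Hnf4a were the 2 genes most like Adamts1 over the 29 libraries (Pearson's r of log2 CPM 0.756 and 0.733, as a description). At E13.5 their summed level was 84.8, 77, 5.77 and 108 CPM in wild type and 143, 31.1 and 6.11 CPM in Cdkn1b-null libraries. In the wild-type library at 5.77 CPM, 2 of the 7 were at 0 and 4 exceeded 3 counts, and this library had the lowest Adamts1 value of its age. It also had the highest Has2 and Ptx3 values, and 18.974% of its counts came from haemoglobin genes, against 0.701 to 1.048% in the other E13.5 libraries. At E18.5 the sum was 33.2 CPM in Cdkn1b-null replicate 1, whose Adamts1 was the highest of its age, against 5.7 to 8.04 CPM in the other Cdkn1b-null libraries. The wild-type E18.5 libraries did not follow this order: replicate 4, with Adamts1 at 96.2 CPM, had a sum of 7.94 CPM, and replicate 2, with the highest wild-type sum (12 CPM), had Adamts1 at 55.9 CPM. Without Cdkn1b-null replicate 1 the genotype difference in Adamts1 at E18.5 was -0.17 in place of 0.19. The part of tubule RNA in these values was not tested.

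**Figure D2:**
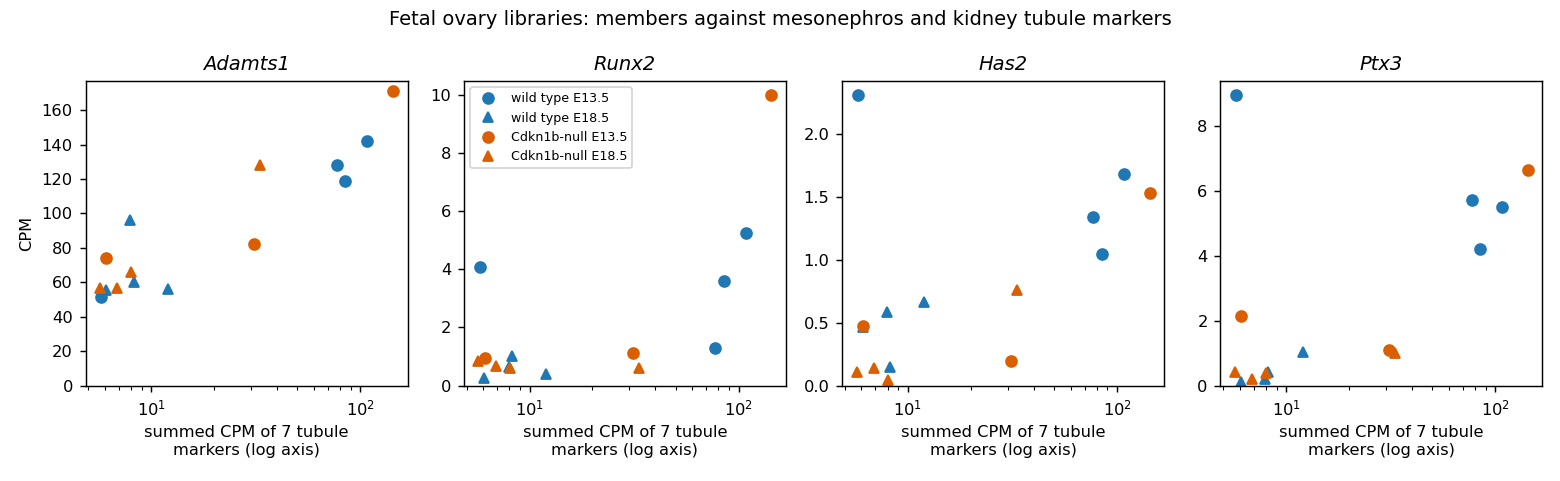
Level (CPM) of Adamts1, Runx2, Has2 and Ptx3 in each fetal library against the summed level of the 7 tubule markers (CPM, log axis); circles are E13.5 and triangles E18.5, blue wild type and orange Cdkn1b-null. The library with the highest sum, 143 CPM, had the highest Adamts1 (171 CPM) and Runx2 (9.99 CPM), while the highest Has2 (2.31 CPM) and Ptx3 (8.93 CPM) were in the wild-type library with a sum of 5.77 CPM.

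Runx2 encodes a runt-domain transcription factor known for bone formation and, in the ovary, for its induction in follicles by luteinizing hormone. It lies at chr17:44495987-44814797 on the minus strand. At E13.5 the wild-type libraries had 3.6, 1.29, 4.08 and 5.25 CPM and the Cdkn1b-null libraries 9.99, 1.13 and 0.957. At E18.5 they had 0.258, 0.409, 1.01 and 0.627 CPM and 0.6, 0.836, 0.615 and 0.66 CPM. The E18.5 values were below all E13.5 values of the same genotype. Runx2 fell by 2.62 ± 0.539 in wild type (edgeR adjusted p 0.00413), a call kept in each of 8 fits without 1 library. In Cdkn1b-null ovaries it fell by 2.55 ± 0.807 (edgeR adjusted p 0.0432). A block on the replicate number, which the labels do not give as a pairing, gave -1.84, with an edgeR adjusted p of 0.129. The change was -2.53 without the filter on low counts (edgeR adjusted p 0.0933) and -2.53 with all groups in 1 fit (0.052). Without E13.5 replicate 1, the library with 9.99 CPM, it was -0.61 with an adjusted p of 0.356 in edgeR, and each E18.5 library left out also ended the call (0.0918 to 0.102).

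At PND8 the wild-type libraries had 2.89, 2.6, 3.02 and 1.71 CPM and the Cdkn1b-null libraries 4, 2.4 and 2.12, all above the E18.5 values. The rise was 2.05 ± 0.414 in wild type and 2.00 ± 0.338 in Cdkn1b-null ovaries, with edgeR adjusted p of 0.00108 and 0.000348, and no single library ended either call, though with all groups in 1 fit the second had 0.0555. At 12wk wild-type replicates 1 to 4 had 40.4, 218, 15.3 and 99.7 CPM, and Cdkn1b-null replicates 1, 3 and 4 had 2.56, 19.1 and 62.5 CPM. All 4 wild-type adults were above all PND8 libraries, while Cdkn1b-null replicate 1 lay within the PND8 range. The adult rise was 5.27 ± 0.805 in wild type (edgeR adjusted p 0.00192), again kept in each of 8 fits without 1 library. In Cdkn1b-null ovaries the difference was 3.41 ± 1.07 with an adjusted p of 0.0577 in edgeR, and 3.94 with an adjusted p of 0.0103 without replicate 1. It was also called by DESeq2 (3.42, adjusted p 0.00852) and with all groups in 1 fit (3.29, edgeR adjusted p 0.0102). Per kilobase Runx2 moved from 0.289 ± 0.0664 CPM at PND8 to 10.6 ± 10.2 CPM at 12wk in wild type (SD, n = 4), second to Adamts1 at 21.3 ± 19.7, from which it did not differ beyond the spread.

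Counted over the members, all calls from E13.5 to E18.5 were falls, while those from E18.5 to PND8 went both ways. From E13.5 to E18.5, 3 of 7 tested members fell in wild type (Has2, Ptx3 and Runx2) and 0 rose, where 34% of all 16603 genes tested were called and 17.5% were lower (16.6% higher). Their median log2 change was -0.80, against 0.007 over all genes. DESeq2 called 5 of 7 in that wild-type step, adding falls of Adamts1 and Ereg, against 39.1% of all genes in DESeq2. In Cdkn1b-null ovaries 3 of 6 fell (Ereg, Ptx3 and Runx2), where 30.2% of genes were called, 14.5% lower and 15.8% higher, with medians of -1.26 and 0.018. Blocking on the replicate number left 2 of 6, without Runx2. Of the members tested from E18.5 to PND8, 4 of 7 were called in wild type, against 74.5% of all genes; Runx2 was higher and Adamts1, Ereg and Tnfaip6 were lower, as 37.6% and 36.9% of genes were. The Cdkn1b-null step had 1 of 6, Runx2, against 77.4% of genes (38.9% higher, 38.5% lower), and 3 of 6 with DESeq2, which added Tnfaip6 and Adamts1, against 77.9% of all genes in DESeq2. Between PND8 and 12wk, 2 of 8 were called in wild type (Runx2 higher, Tnfaip6 lower), against 30.5% of genes (16.1% higher, 14.3% lower). In Cdkn1b-null ovaries 1 of 8 was called (Tnfaip6 lower), against 29.1% (14.8% higher, 14.3% lower). The consecutive steps share the libraries of the middle age.

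**Figure D3:**
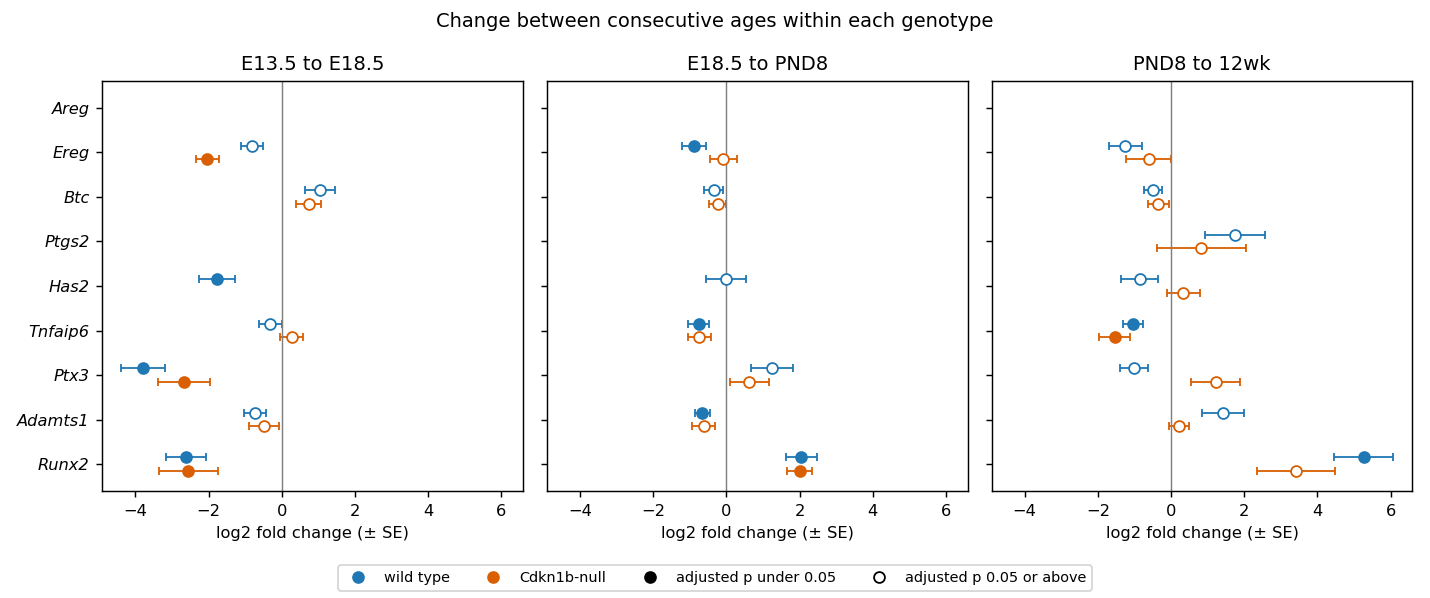
Log2 fold change ± SE between consecutive ages within wild type (blue) and Cdkn1b-null (orange) ovaries; filled points have an adjusted p under 0.05 in edgeR, and genes with no point failed the filter on low counts. Ptx3 and Runx2 lie left of 0 from E13.5 to E18.5 in both genotypes, and Runx2 in wild type reaches 5.27 from PND8 to 12wk.

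The genotype comparison asked whether loss of Cdkn1b changed these genes. From the youngest to the oldest age 7, 5, 7 and 8 members were tested, and edgeR and DESeq2 each called 0 of them at every age. At an unadjusted p under 0.05 edgeR had 0, 1 (Ereg), 0 and 1 (Ptx3), where 3.49%, 22.2%, 15% and 9.62% of all genes had one. The 95% intervals were wide. At 12wk the log2 difference ran from -3.91 to 0.51 for Runx2, from -2.36 to 0.32 for Adamts1 and from -0.25 to 0.90 for Btc, so with the spread of Runx2 between adults (SD of log2 CPM 1.65 and 2.31) differences of several fold were not detectable. The Adamts1 difference of -1.02 was -0.14 without wild-type replicate 4, and the Runx2 difference at E13.5 was 0.16 with all libraries and -1.81 without Cdkn1b-null replicate 1. The genotype by age interaction was called for 0 of 8 members by edgeR and by DESeq2, against 0.806% of 20360 genes in edgeR; 1 of the 8, Ptx3, had an unadjusted p under 0.05 (0.0364, adjusted 0.353), as 12.7% of genes had. Cdkn1b itself was lower in every Cdkn1b-null library than in every wild-type library of its age, though reads remained in the Cdkn1b-null libraries. It was at 12.5 ± 2.67 against 103 ± 13 CPM at E18.5 (SD, n = 4 each), and at 71.5 ± 7.57 (n = 3) against 148 ± 17.5 CPM (n = 4) at PND8. At 12wk the Cdkn1b-null libraries ran from 42.1 to 56.2 CPM and the wild-type libraries from 124 to 265 CPM.

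**Figure D4:**
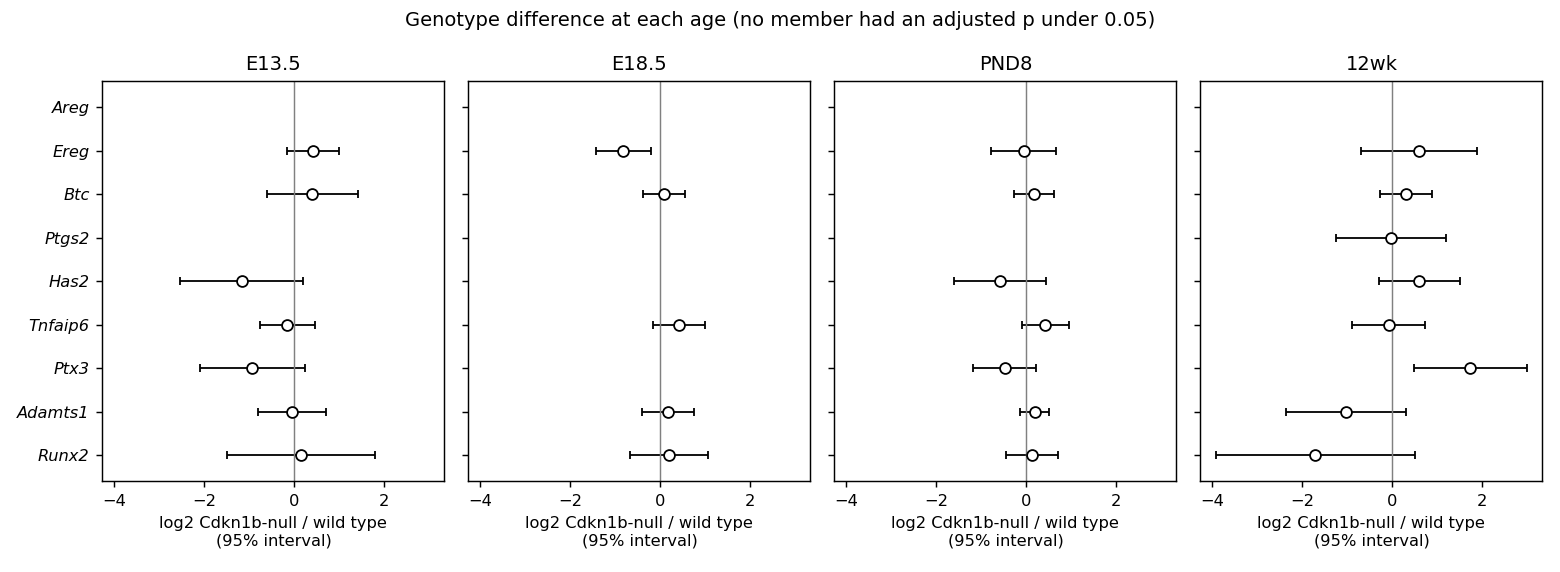
Log2 difference between Cdkn1b-null and wild-type ovaries at each age with its 95% interval (from the SE, normal approximation), by gene; genes with no point failed the filter on low counts. Intervals excluded 0 for Ereg at E18.5 (-1.42 to -0.20) and Ptx3 at 12wk (0.50 to 3.01), neither of which passed the adjustment over all genes.

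Adult ovaries of 1 genotype differed from each other in several members. For Runx2 the SD of log2 CPM at 12wk was 1.65 in wild type and 2.31 in Cdkn1b-null ovaries, larger than that of 98.5% and 99.1% of all genes tested, whose medians were 0.248 and 0.229. The Cdkn1b-null SD was 1.21 without replicate 1. For Adamts1 the SD was 1.3 in wild type (0.822 without replicate 4) and 0.494 in Cdkn1b-null ovaries (0.18 without replicate 1), with 58, 98.4, 31.5 and 264 CPM in wild-type replicates 1 to 4 and 37, 60 and 71.6 CPM in Cdkn1b-null replicates 1, 3 and 4. Wild-type replicate 4 was thus the highest and wild-type replicate 3 the lowest of the 7 adults. Btc was the steadiest, with SDs of 0.184 and 0.331. The SD was larger at 12wk than at PND8 for 5 of 7 members in wild type and 7 of 7 in Cdkn1b-null ovaries, where it was larger for 67.4% and 68.8% of all genes.

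No library was highest in all members. Wild-type replicate 2 led Runx2, Ptgs2 and Has2 in its group, and wild-type replicate 4 led Adamts1, Tnfaip6, Ptx3, Ereg and Btc. Wild-type replicate 3 led none and was lowest for 4. Among Cdkn1b-null adults replicate 1 was lowest for 6 of the 9 and led none.

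Genes of luteinized cells were uneven over the same 7 ovaries. Ptgfr, the receptor for prostaglandin F2-alpha found on luteal cells, was at 204, 267, 46.7 and 72.4 CPM in wild-type replicates 1 to 4 and at 2.64, 83.5 and 210 CPM in the Cdkn1b-null libraries. Sfrp4, a secreted Wnt modulator made in the corpus luteum, was at 723, 1040, 113 and 234 CPM and at 6.98, 411 and 523 CPM. Lhcgr, the luteinizing hormone receptor, was at 193, 667, 28.8 and 156 CPM and at 197, 99.8 and 214 CPM. Cdkn1b-null replicate 1, lowest for Runx2, was also lowest for Ptgfr and Sfrp4, but not for Lhcgr, where wild-type replicate 3 was. Wild-type replicate 2 was highest for Runx2 and for all 3 of these genes. The 7 luteal markers summed to 3840, 8510, 2770 and 4040 CPM in wild type and to 4180, 4250 and 5280 CPM in Cdkn1b-null libraries, with all 7 above 3 counts in every adult library. Akr1c18, which inactivates progesterone in regressing corpora lutea, was lowest in Cdkn1b-null replicates 1 (0.217 CPM) and 4 (2.08 CPM) and at 24.3 to 116 CPM elsewhere. Their part in the Runx2 values was not tested. Over all 29 libraries a gene closely like Runx2 was St3gal1, which encodes a sialyltransferase (Pearson's r of log2 CPM 0.934) and ran from 19.9 to 76.2 CPM in the adults. This correlation describes libraries that share ages and carries no test.

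**Figure D5:**
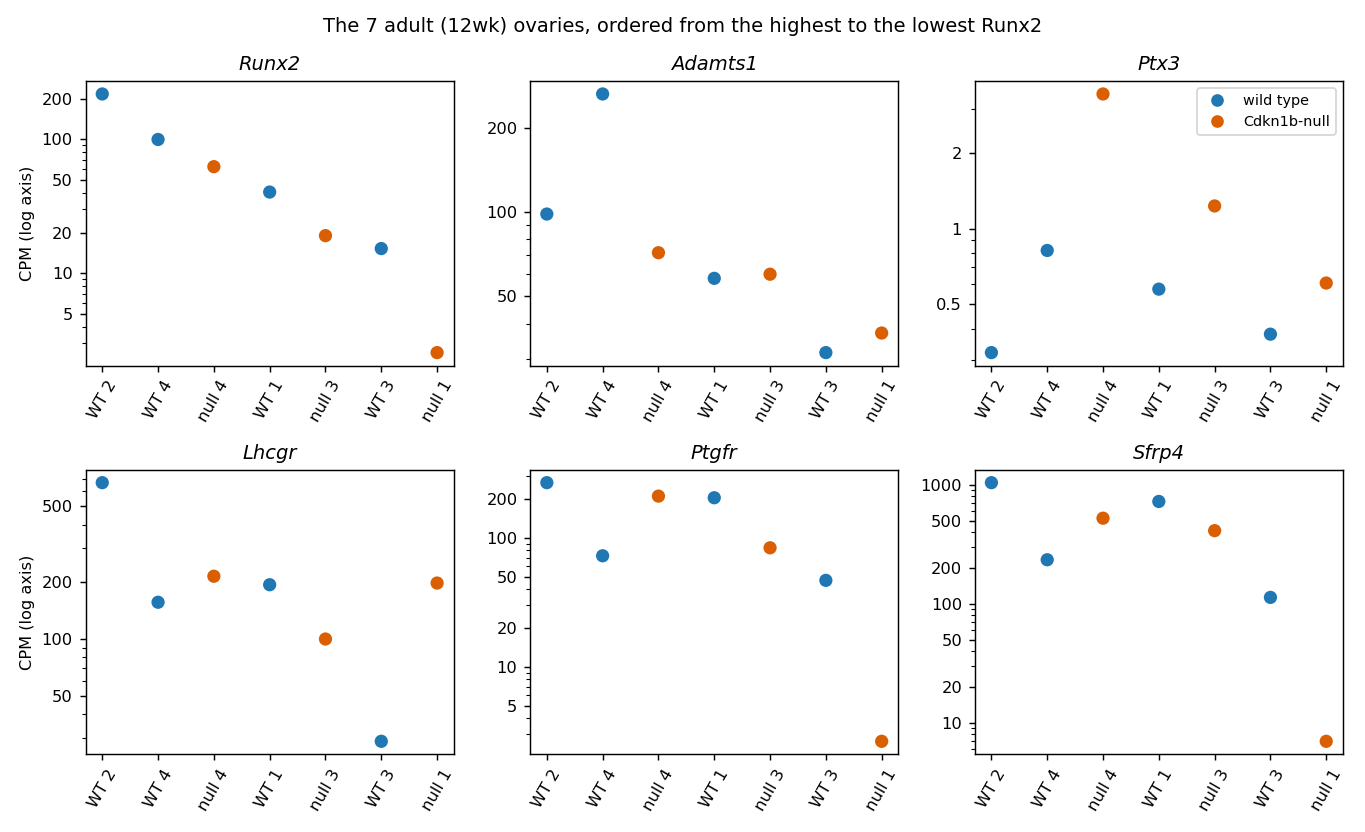
CPM (log axis) of Runx2, Adamts1, Ptx3 and 3 genes of luteal cells in the 7 adult ovaries, ordered on the x axis from the highest to the lowest Runx2; blue is wild type and orange Cdkn1b-null. Ptgfr and Sfrp4 end at 2.64 and 6.98 CPM in the library with the lowest Runx2, whereas Lhcgr is 197 CPM there.

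Other markers differed among the adults too. The surface epithelium gene Upk3b was at 0.0321 CPM in wild-type replicate 2 and 0.0867 CPM in Cdkn1b-null replicate 1, against 15.5 to 39.5 CPM in the other 5, and the oocyte factor Gdf9 was at 34.3 CPM in wild-type replicate 3 against 1.91 to 8.18 CPM elsewhere. Immediate early genes summed to 1700 CPM over 16 genes in wild-type replicate 1 and to 652 to 1110 CPM in the other adults. The labels' missing cycle stage, the cell makeup and the handling of each ovary cannot be told apart from these values.

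For the other members the genes most like them over the 29 libraries, by Pearson's r of log2 CPM among 14060 candidates, were as follows, as a description with no test. Tnfaip6 resembled Peg3, an imprinted gene (r = 0.931), and Cenpl, a centromere protein gene (0.922). Ptx3 resembled Adamts15, a relative of Adamts1 (0.862), and Dkk2, a Wnt inhibitor (0.833). Has2 resembled the transcription factor genes Nr2f1 (0.864) and Twist2 (0.798). Ereg resembled Got1l1 (0.906) and Mgam (0.891), Btc resembled Cluap1 (0.85) and Chst9 (0.845), and Ptgs2 had the weakest likeness, with Smpd1 (0.638) and Slamf9 (0.616). Several of these genes had lower levels at later ages, as the member did, for example Peg3, with wild-type means of 1460, 824, 478 and 69.4 CPM from the youngest to the oldest age.

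Many other genes of the pathway were present where Areg and Ptgs2 were near the floor. Among 69 such genes in 6 lists (luteinizing hormone response, EGF receptor ligands and receptors, hyaluronan matrix, prostaglandin genes, oocyte factors and Runx factors), 46 of 62 tested were called from E18.5 to PND8 in wild type, 33 higher and 13 lower. By list these were 12 of 16, 7 of 10, 7 of 13, 11 of 13, 6 of 7 and 3 of 3. Of all genes 74.5% were called (37.6% higher, 36.9% lower), so the share called was like that of genes in general. The genes named next are among the 33 that rose. The receptor Egfr, through which the ligands act, rose from 24.2 ± 5.43 to 195 ± 32.3 CPM (SD, n = 4 each), and Tgfa, another ligand of this receptor, from 21.6 ± 2.9 to 65 ± 6.55 CPM. Both were called in edgeR, with adjusted p of 4.4e-07 and 2.24e-06. Vcan, which encodes versican, the ADAMTS1 substrate, rose from 17.1 ± 4.17 to 769 ± 94.9 CPM, and Ptges, the prostaglandin E synthase that acts after cyclooxygenase, from 9.5 ± 1.59 to 440 ± 95 CPM, both with an edgeR adjusted p of 3.13e-08. In the same interval Ptgs2 stayed at a mean of 0.0714 and then 0.203 CPM and Areg at 0.276 and 0.0389 CPM.

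From PND8 to 12wk, 31 of 64 tested genes of these lists were called in wild type, 22 higher and 9 lower, and 31 of 64 in Cdkn1b-null ovaries, 20 higher and 11 lower. Of all genes 30.5% were called in wild type (16.1% higher, 14.3% lower) and 29.1% in Cdkn1b-null ovaries (14.8% higher, 14.3% lower). Of the 18 genes of the luteinizing hormone response, 11 rose and 1 fell in wild type among 16 tested, and 9 rose among 15 in Cdkn1b-null ovaries, with medians of 1.66 and 2.30 against -0.008 and -0.011 over all genes. Star, which carries cholesterol into mitochondria for steroid synthesis, rose from 23.7 ± 5.12 to 350 ± 278 CPM in wild type (SD, n = 4 each; edgeR adjusted p 0.00112), and the transcription factor gene Cebpa from 19.3 ± 4.24 to 56.8 ± 12.9 CPM (0.000653). Of 15 hyaluronan matrix genes 4 rose and 4 fell in wild type, among the latter Hapln1, a hyaluronan link protein, from 7.38 ± 0.724 to 0.858 ± 0.335 CPM (edgeR adjusted p 0.000308). Ptgfr, at a mean of 2.13 ± 0.525 CPM at PND8, reached 147 ± 105 CPM in wild type (edgeR adjusted p 0.000336). Of the other Runx factors Runx1 went from 61.3 ± 15.4 to 132 ± 50.9 CPM and Runx3 from 0.171 ± 0.103 to 2.73 ± 0.441 CPM in wild type, with edgeR adjusted p of 0.0109 and 0.000372. Between the genotypes edgeR called 0 of 58, 1 of 59, 0 of 63 and 0 of 63 tested pathway genes at the 4 ages, 1, 17, 16 and 11 had an unadjusted p under 0.05 (3.49%, 22.2%, 15% and 9.62% of all genes did), and DESeq2 called 0, 10, 8 and 6 (0.394%, 10.3%, 4.62% and 1.87% of all genes). The 1 gene was Hmmr, a hyaluronan receptor and mitotic spindle protein, at 36.9 ± 8.53 CPM in wild type and 67.6 ± 8.45 CPM in Cdkn1b-null ovaries at E18.5 (edgeR adjusted p 0.014, n = 4 each).

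Ovarian markers were found at levels that depended on age. Of 10 granulosa markers 6 to 9 exceeded 3 counts in fetal libraries and all 10 in PND8 and 12wk libraries. The 7 oocyte markers summed to 3.15 to 18 CPM in fetal libraries and to 237 to 1410 CPM at PND8. At 12wk they summed to 6.41 to 87.8 CPM in wild type and to 3.08 to 7.32 CPM in Cdkn1b-null libraries. From PND8 to 12wk edgeR called 6 of 7 lower in wild type and 7 of 7 in Cdkn1b-null ovaries. Of all genes 14.3% were called lower in each genotype. The 29 libraries held 14.1 to 48.21 M counts (M for mega), with 14.1 to 24.86 M in fetal and 24.07 to 48.21 M in later ovaries. Cdkn1b-null replicate 1 was the highest library of its group for 6 of the 9 members in the E13.5, E18.5 and PND8 groups alike, and wild-type replicate 1 for 6 of 9 at PND8. In that wild-type library the 16 immediate early genes summed to 4040 CPM, against 612 to 2840 CPM in the rest of its group. In Cdkn1b-null replicate 1 they summed to 584, 595 and 2300 CPM at E13.5, E18.5 and PND8. These sums were the highest of the group at E13.5 and PND8, but at E18.5 replicate 3 had 912 CPM and led no member. The part of such differences between libraries in the member values was not tested.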

How the data were processed

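Per the file headers, the authors deposited gene-level expected counts from RSEM on Ensembl genes, in 1 table of 29 libraries. Per the file headers, 2 numbered sets were combined. Which library came from which set is not given in the sources used here, so no value within a set could be computed. The submitters' processing notes name Trim Galore, STAR 2.5.2, RSEM 1.3.0 and FastQC 0.11.5; the genome build, Ensembl release and strandedness are not given in the sources used here. Of the values above 0, 31.4% were not whole, and all were rounded. Symbols were matched for 51633 of 51912 IDs. Gene positions were read from the GENCODE M21 annotation (GRCm38), which may not be the authors' annotation.

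Each comparison was fitted on its 2 groups with edgeR 4.0.16 (R 4.3.3): TMM, filterByExpr (minimum count 10, total 15), robust quasi-likelihood F test, Benjamini-Hochberg over all genes, threshold 0.05 ("called"). SE is the log2 change over the square root of F. SD of log2 CPM used a prior count of 2. Intervals and floors cover counting or model error only. Alternatives were RLE, no filter, DESeq2 1.42.0, all groups in 1 fit, the replicate block, a prior count of 0.5, and each replicate left out. In simulated counts for genotype at 12wk (17396 genes), 44% of changes of 1 log2 unit and 85% of 3 were recovered, and 10 unchanged genes were called. The changed genes were drawn at random and kept their own dispersion. These rates therefore need not hold for members with a large spread or low counts.

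The 39 replicate pairs all differed beyond sampling noise (chi-square per degree of freedom 14.1 to 316.6). Same-numbered libraries deviated together (every pair's r over 0.1) in 1 comparison, the Cdkn1b-null step from E13.5 to E18.5 (r 0.128 to 0.23). Every member is named, with up to 4 called genes of smallest p per list and comparison and the 2 genes most correlated with a member (1 of these is not reported here); other genes (Upk3b, the tubule markers, Lhcgr and Sfrp4 in single adults, Gdf9 at 12wk) were chosen after their values were seen. Members and lists were chosen with earlier results of these data known.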

Additional observations from a re-analysis of the deposited data

Results flagged for a closer look

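In 7 of 41 groups of 4 libraries examined, 1 library lay far from the other 3. The cutoff flags about 1 in 20 groups when values are independent and normally distributed. These CPM values are skewed, some rest on few counts, and several flags come from 1 library. The number flagged therefore cannot be compared with that rate. Cdkn1b-null replicate 1 at E18.5 stood out for Has2 (0.76 CPM, others 0.0473 to 0.141), Ptgs2 (1.88 CPM, others 0 to 0.284) and Adamts1 (128 CPM, others 56.5 to 65.9). Wild-type libraries stood out at E18.5 for Adamts1 in replicate 4 (96.2 CPM, others 55.6 to 60) and Areg in replicate 2 (0.972 CPM, others 0 to 0.0836). At 12wk Areg stood out in wild-type replicate 1 (0.143 CPM, which is 5 counts against 1 in each other library) and Ereg in wild-type replicate 4 (0.85 CPM, others 0.258 to 0.353).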

How the results depend on the processing

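The number of members called for genotype was 0 at every age under every alternative run. With DESeq2, genes called for genotype were 65, 1685, 821 and 326 at the 4 ages, youngest first, and 705 for the interaction. With all groups in 1 fit they were 59 at E13.5, 0 at PND8 and 68 at 12wk, without the filter 258 at PND8 and 12 at 12wk, and with the replicate block 8 at PND8 and 10 at 12wk. Members called between ages were 5 with DESeq2 for wild type from E13.5 to E18.5, 2 without the filter or with all groups in 1 fit for wild type from E18.5 to PND8, and 4 with all groups in 1 fit for wild type from PND8 to 12wk. For Cdkn1b-null ovaries they were 3 (DESeq2), 0 (all groups in 1 fit) and 3 (replicate block) from E18.5 to PND8, and 2, 2 and 0 from PND8 to 12wk. The block turned the log2 genotype difference to 0.05 for Adamts1 and -1.04 for Runx2 at E13.5 and to 0.37 for Ptgs2 at 12wk, and all groups in 1 fit gave 0 for that Ptgs2 value. Has2 in wild type from E18.5 to PND8 was 0.05 without the filter and 0.08 with all groups in 1 fit. The causes were not tested. The labels do not pair libraries, so the block rests on a shared replicate number, even in the comparison where same-numbered libraries deviated together.

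Leaving out 1 library, genes called for genotype ranged in the same order from 0 to 1, 246 to 1372, 0 to 147 and 0 to 3, from 73 to 235 for the interaction, and from 2643 to 5130 for Cdkn1b-null ovaries from PND8 to 12wk. Members called in the 3 consecutive steps ranged from 2 to 5, 2 to 5 and 1 to 4 in wild type and from 1 to 3, 1 to 2 and 0 to 1 in Cdkn1b-null ovaries. Log2 genotype differences that changed sign ranged, at E13.5, from -0.37 to 0.06 for Tnfaip6, -0.54 to 0.19 for Adamts1 and -1.81 to 0.63 for Runx2; at E18.5, from -0.17 to 0.41 for Adamts1 and -0.03 to 0.62 for Runx2. At PND8 they ranged from -0.37 to 0.22 for Ereg and -0.19 to 0.31 for Runx2, and at 12wk from -0.36 to 0.20 for Ptgs2 and -0.44 to 0.17 for Tnfaip6. Steps that changed sign were Has2 in wild type from E18.5 to PND8 (-0.34 to 0.29) and, in Cdkn1b-null ovaries, Ereg from E18.5 to PND8 (-0.41 to 0.09) and Adamts1 from PND8 to 12wk (-0.04 to 0.43). Areg held at most 3 counts in 24 libraries and Ptgs2 in 11, so their levels carry wide counting error.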
